A study of Mus musculus with 6 samples.

Results

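The 10 genes Arntl, Clock, Npas2, Per1, Per2, Per3, Cry1, Cry2, Dbp and Hlf form the core of the circadian clock and its bZIP outputs, and were taken by symbol from a count table of 54532 genes. All 10 matched, and all 10 passed the filter on low counts that left 13706 genes for testing. They were read in 6 liver RNA-seq libraries of mice 5 weeks old. Of these, 3 came from Fam210aHKO mice, in which Fam210a, coding for a mitochondrial inner membrane protein, is knocked out in hepatocytes only, and 3 from control mice (Ctrl). The labels name no Cre driver, strain, sex, feeding state or time of tissue collection. The labels number the libraries 1 to 3 in each group without saying that each is a separate animal, so p-values measure the spread between these libraries, part of which may be technical.

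The clock is a feedback loop of transcription. BMAL1, the product of Arntl, pairs with CLOCK or its relative NPAS2 and activates genes that carry E-box letters, among them the Period (Per) and Cryptochrome (Cry) genes, whose proteins then repress the pair. In a second loop the REV-ERB repressors (Nr1d1, Nr1d2) and ROR activators (Rora among them) act on Arntl through ROR elements, and the PAR bZIP factors DBP, TEF and HLF drive outputs through D-boxes. In mouse liver most of these messages cycle over the day, with Dbp and Arntl among the strongest and in opposite phase, so that their levels depend on when a liver was taken.

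Library by library, 8 of the 10 clock genes had replicate 1 at the same end in both groups (29.9% of tested genes did). A test of the number, given below, called 2 of the 10, Dbp and Per3, and 0.474% of all tested genes. In replicate 1 of Fam210aHKO and in replicate 1 of Ctrl, Dbp, Per1, Per2, Per3 and Cry2 were at their highest within the group and Arntl, Clock and Npas2 at their lowest. Between the groups, 1 of the 10, Hlf, was called (27.5% of all tested genes were), and it fell to 0.389 of the control level. None was called higher, where 14% of tested genes were, and 13.5% of tested genes were lower. In whole liver, fewer cells of a type and less RNA per cell cannot be told apart. Whether the replicate numbers pair the libraries is not in the labels, and the correlation check given with the methods does not settle it. When the number entered the fit as a block, Per2, Npas2 and Cry2 were called lower too. That made 4 of 10, where 35.7% of tested genes were called and 18% were lower. The block fit leaves 2 residual degrees of freedom, against 4 on group alone. When libraries were scaled by their totals alone, 42.7% of tested genes were higher and 6.33% lower, and of the clock genes Hlf alone was called, as lower.

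Some facts of the libraries touch all these results. Totals lay between 12541465 and 19655235 counts, so that 3 counts were 0.132 to 0.261 CPM (counts scaled to 1e+06 per library by TMM factors). Fam210a stood at 31.7, 28.6 and 44.2 CPM in Fam210aHKO replicates 1 to 3 and at 119, 136 and 162 CPM in Ctrl replicates 1 to 3. The genotype labels of Fam210aHKO replicates 2 and 3 name other genes, and the groups here follow the sample titles. All 6 libraries had at most 0.487 CPM of Xist and at least 91.4 CPM of the Y-linked Ddx3y. Fam210aHKO replicate 1 stood apart in Lars2, with 3080 CPM against 23.3 to 29.2 CPM in the other 5. Hepatocyte markers had 4 of 7 tested genes called lower and none higher, with summed levels of 84000 to 108000 CPM in Fam210aHKO and 147000 to 230000 CPM in Ctrl. Cholangiocyte markers summed to 135 to 275 CPM in Fam210aHKO and 39.3 to 58.5 CPM in Ctrl, with 2 of 4 tested genes higher and none lower. Stellate markers summed to 424 to 630 CPM in Fam210aHKO and 318 to 383 CPM in Ctrl (2 of 6 higher, none lower), and endothelial markers to 169 to 290 CPM in Fam210aHKO and 264 to 357 CPM in Ctrl (2 of 6 lower, none higher). Macrophage markers summed to 242 to 448 CPM in Fam210aHKO and 303 to 417 CPM in Ctrl (1 of 6 higher, none lower), and lymphocyte and neutrophil markers to 3.97 to 6.33 CPM in Fam210aHKO and 4.35 to 5.78 CPM in Ctrl (none of 4 called). Erythroid markers summed to 24.0 to 238 CPM in Fam210aHKO and 82.9 to 86.0 CPM in Ctrl, with 1 of 5 tested genes lower and none higher. The part of these shifts in the clock values was not tested.

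The activator Arntl (chromosome 7, 113207465 to 113314126, mm10) had 20.8, 31.4 and 35.4 CPM in Fam210aHKO replicates 1 to 3 and 14.3, 33.9 and 28.2 CPM in Ctrl replicates 1 to 3. Replicate 1 was the lowest of its group on both sides, and the groups overlapped. The log2 fold change, Fam210aHKO over Ctrl, was 0.20 (SE 0.288), well within the spread (edgeR quasi-likelihood, adjusted p = 0.656). It was -0.10 without Ctrl replicate 1 and 0.66 with library totals (adjusted p = 0.06, edgeR). With the replicate block and library totals it was 0.70 and called (adjusted p = 0.00256, edgeR), where 6787 tested genes were called higher. One of the 2 RefSeq promoter windows of Arntl (GRCm38.p6, 250 bases before to 50 after a start) is shown because it holds letters of a ROR element, the kind of site on which the second loop acts, here searched as AGGTCA on either strand with AA in the 6 bases before it and set in capitals. It lies at chr7:113207261-113207560 on the plus strand.
Arntl: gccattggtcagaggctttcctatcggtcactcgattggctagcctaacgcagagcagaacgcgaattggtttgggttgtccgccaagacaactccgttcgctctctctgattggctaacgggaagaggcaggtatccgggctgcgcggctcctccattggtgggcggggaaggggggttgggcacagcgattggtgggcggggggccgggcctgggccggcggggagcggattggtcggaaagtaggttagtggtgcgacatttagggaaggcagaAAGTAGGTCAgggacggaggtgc
The same letters stood in 4.44% of all 32851 promoter windows and in no other window of the 9 clock genes with one (Per2 had none in the table).

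Clock (chromosome 5, 76209868 to 76304792), which codes for the partner of BMAL1, had 65.9, 83.1 and 80.3 CPM in Fam210aHKO replicates 1 to 3 and 67.7, 114 and 109 CPM in Ctrl replicates 1 to 3. In replicate 1 the groups were alike, at a ratio of 0.974, and in replicates 2 and 3 the ratio of Fam210aHKO to Ctrl was 0.728 and 0.735. The fitted log2 fold change of -0.34 (SE 0.198) missed the threshold (adjusted p = 0.226, edgeR), and without Ctrl replicate 1 it was -0.56 and called (adjusted p = 0.0353, edgeR). It was -0.22 without Ctrl replicate 2 (adjusted p = 0.476) and 0.12 with library totals (adjusted p = 0.632).

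Npas2 (chromosome 1, 39193731 to 39363236) encodes the other partner of BMAL1. It was scarce, with 2.20, 2.96 and 6.32 CPM in Fam210aHKO replicates 1 to 3 and 3.91, 5.44 and 8.47 CPM in Ctrl replicates 1 to 3. Within each group replicate 1 was lowest and replicate 3 highest, and within each replicate number Fam210aHKO was the lower library. The fit on group alone gave a log2 fold change of -0.63 ± 0.393 (SE; edgeR adjusted p = 0.265), whereas the replicate block gave -0.69 with a smaller error (SE 0.219, adjusted p = 0.0307). Without Fam210aHKO replicate 3 the value was -1.22 (adjusted p = 0.0252, edgeR), while it was -0.36 without Fam210aHKO replicate 1 (adjusted p = 0.534) and -0.30 without Ctrl replicate 3 (adjusted p = 0.671). The call under the block ended with library totals (-0.24, adjusted p = 0.359).

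**Figure D1:**
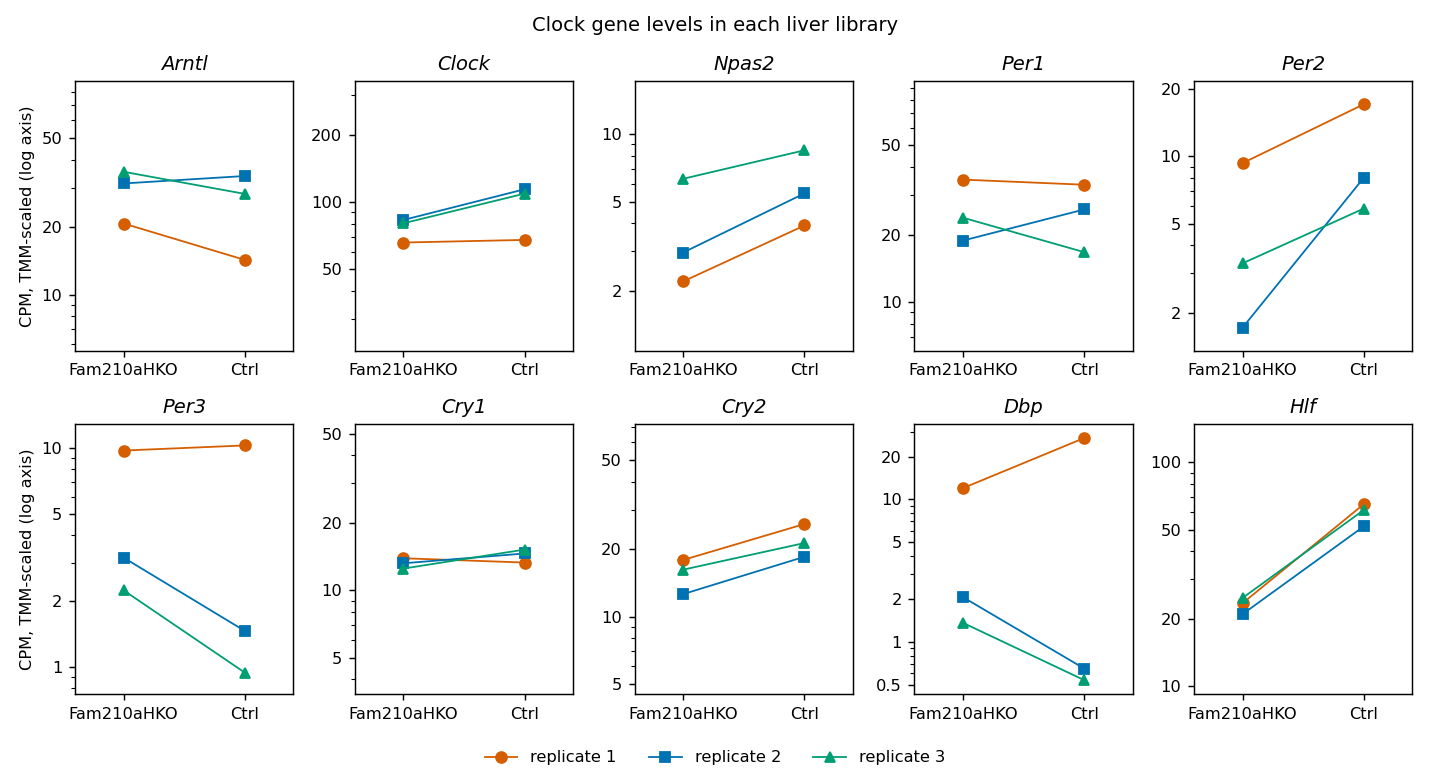
CPM of the 10 clock genes in each library (log axes), Fam210aHKO left and Ctrl right, with lines joining libraries of the same replicate number. Replicate 1 lies apart from replicates 2 and 3 in Dbp and Per3 on both sides, while Hlf differs between the groups in all 3 numbers, from 21 to 24.8 CPM in Fam210aHKO and from 51.8 to 65.1 CPM in Ctrl.

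Among the repressors, the 3 Period genes shared the high replicate 1 but differed in what the groups did. Per1 (chromosome 11, 69095217 to 69109960), the Period gene that also answers to hormones and feeding, had 35.2, 18.8 and 23.8 CPM in Fam210aHKO replicates 1 to 3 and 33.4, 25.9 and 16.7 CPM in Ctrl replicates 1 to 3. The groups lay over each other, with a log2 fold change of 0.04 ± 0.271 (SE, edgeR adjusted p = 0.934). With the replicate block and library totals it was 0.50 and called (adjusted p = 0.0271, edgeR), where 6787 tested genes were called higher.

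Per2 (chromosome 1, 91415982 to 91459324), a repressor that also carries signals from outside the clock into it, had 9.33, 1.72 and 3.33 CPM in Fam210aHKO replicates 1 to 3. In Ctrl replicates 1 to 3 it had 17.1, 8.04 and 5.85 CPM. Fam210aHKO replicate 1 exceeded Ctrl replicates 2 and 3, so the groups overlapped, although within every number the Fam210aHKO library was lower, at ratios of 0.545, 0.214 and 0.570. On group alone the log2 fold change came to -1.09 ± 0.534 (SE; edgeR adjusted p = 0.158). With the replicate block it was -1.23 (SE 0.265, adjusted p = 0.00404), and Per2 was then called lower. Leaving out Fam210aHKO replicate 1 gave -2.003 (adjusted p = 0.00629), and leaving out replicate 1 of both groups gave -1.42 (adjusted p = 0.0303). The value was -0.53 without Ctrl replicate 1 (adjusted p = 0.537) and -0.70 without Fam210aHKO replicate 2 (adjusted p = 0.344).

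Per3 (chromosome 4, 151003652 to 151044665), a Period gene not needed for the rhythm itself, stood at 9.76, 3.16 and 2.24 CPM in Fam210aHKO replicates 1 to 3 and at 10.3, 1.46 and 0.941 CPM in Ctrl replicates 1 to 3. Its highest library was 4.36 times its lowest in Fam210aHKO and 11 times in Ctrl, against 5.42 and 2.93 times for Per2. Replicate 1 was alike in both groups (ratio 0.943), and in replicates 2 and 3 Fam210aHKO was at 2.17 and 2.38 times Ctrl, from 46 and 51 counts against 18 and 14 counts. The fit over all libraries gave a log2 fold change of 0.28 ± 0.765 (SE; edgeR adjusted p = 0.821). Camta1, which overlaps Per3 on the same strand, lay between 2.06 and 4.22 CPM. Without Ctrl replicate 1 the Per3 value was 2.07 and called (adjusted p = 0.0481), and without Fam210aHKO replicate 1 it was -0.65. With the replicate block and library totals it was 1.06 and called (adjusted p = 0.00906, edgeR), where 6787 tested genes were called higher. The promoters of Per3 and Per1 are shown because they carry the letters of a D-box and of an E-box. Capitals mark the D-box searched as TTATGTAA or TTACGTAA and the E-box CACGTG, each on both strands. The Per3 window is chr4:151044616-151044915 on the minus strand and that of Per1, the first of 2, chr11:69098699-69098998 on the plus strand.
Per3: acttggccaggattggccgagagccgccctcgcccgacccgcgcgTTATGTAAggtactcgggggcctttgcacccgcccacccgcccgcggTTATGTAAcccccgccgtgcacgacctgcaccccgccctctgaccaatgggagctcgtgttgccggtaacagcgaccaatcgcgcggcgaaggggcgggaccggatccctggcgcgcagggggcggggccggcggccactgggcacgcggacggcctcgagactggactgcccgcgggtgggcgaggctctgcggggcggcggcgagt
Per1: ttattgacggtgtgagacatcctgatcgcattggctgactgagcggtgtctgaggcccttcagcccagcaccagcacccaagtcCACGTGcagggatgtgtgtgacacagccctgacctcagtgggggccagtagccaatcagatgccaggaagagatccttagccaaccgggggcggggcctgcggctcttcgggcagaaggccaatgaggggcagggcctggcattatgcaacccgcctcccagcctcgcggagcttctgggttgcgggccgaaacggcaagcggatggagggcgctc
The D-box stood 2 times in the Per3 window, where 1.06% of all windows held it at all and 0.0244% held it more than once. It was in no other window of the clock genes. The E-box was in 7.15% of all windows and, among the clock genes, in those of Per1 and Cry1 alone.

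The Cryptochromes hold the activators down together with the Period proteins. Cry1 (chromosome 10, 85131700 to 85185064), the steadiest of the 10 over the libraries, had 13.9, 13.2 and 12.5 CPM in Fam210aHKO replicates 1 to 3 and 13.3, 14.6 and 15.2 CPM in Ctrl replicates 1 to 3. Its highest library was at most 1.14 times its lowest within a group, against 8.79 and 50.3 times for Dbp in Fam210aHKO and Ctrl. The log2 fold change came to -0.12 ± 0.159 (SE; edgeR adjusted p = 0.607), or 0.33 with library totals. Its window, chr10:85185005-85185304 on the minus strand, is printed for comparison, since it holds the E-box (in capitals) that Per1 also has.
Cry1: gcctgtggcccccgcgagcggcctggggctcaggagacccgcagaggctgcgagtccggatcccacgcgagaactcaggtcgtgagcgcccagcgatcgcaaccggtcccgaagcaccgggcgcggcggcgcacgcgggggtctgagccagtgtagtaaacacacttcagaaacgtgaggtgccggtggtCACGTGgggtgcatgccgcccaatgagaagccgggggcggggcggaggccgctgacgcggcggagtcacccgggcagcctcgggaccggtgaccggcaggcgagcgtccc
A match of letters describes the window and is no evidence of binding.

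Cry2 (chromosome 2, 92403646 to 92434043) had 17.9, 12.6 and 16.2 CPM in Fam210aHKO replicates 1 to 3 and 25.9, 18.5 and 21.3 CPM in Ctrl replicates 1 to 3. The highest Fam210aHKO library lay just under the lowest Ctrl library. It is 1 of 2 clock genes below Ctrl without overlap, where 20.7% of tested genes were (42.7% of tested genes had no overlap in either direction, and 22% were above). The log2 fold change of -0.49 (SE 0.190) missed the threshold (adjusted p = 0.079, edgeR) and was called with the replicate block (-0.49, SE 0.139, adjusted p = 0.0172) and without Ctrl replicate 2 (-0.61, adjusted p = 0.0464). With library totals the value was near 0, at -0.043 on group alone (adjusted p = 0.876) and -0.040 with the block (adjusted p = 0.831).

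Dbp (chromosome 7, 45705088 to 45710203), which codes for the output factor with the steepest daily rhythm of the PAR bZIP family, had 12, 2.06 and 1.36 CPM in Fam210aHKO replicates 1 to 3. In Ctrl replicates 1 to 3 it had 27.0, 0.649 and 0.538 CPM. Replicate 1 was thus 6.99 times the mean of replicates 2 and 3 in Fam210aHKO and 45.6 times in Ctrl, where replicates 2 and 3 held 8 counts each. The direction of the group difference turned with the number: Fam210aHKO over Ctrl was 0.442 in replicate 1, 3.18 in replicate 2 and 2.53 in replicate 3. The fitted log2 fold change was -0.85 with an SE of 1.16 (adjusted p = 0.630, edgeR) on group alone and 0.10 (SE 0.455, adjusted p = 0.887) with the block. Without replicate 1 of both groups it was 1.49 (SE 0.492, adjusted p = 0.0738), and without Ctrl replicate 1 alone it was 3.10 (SE 0.970, adjusted p = 0.050), against -2.47 without Fam210aHKO replicate 1. With 1 library per group and number, a change of the group difference between numbers could not be tested. Sphk2 overlaps Dbp on the other strand, and the labels do not say whether the counting used strand, so reads of the pair may not be told apart. Its levels were 41.6, 42.3 and 47.6 CPM in Fam210aHKO replicates 1 to 3 and 56.5, 35.6 and 64.0 CPM in Ctrl replicates 1 to 3. These levels vary far less than those of Dbp.

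Hlf (chromosome 11, 90336536 to 90390895), which codes for a PAR bZIP factor that binds the same D-boxes as DBP and TEF, varied by at most 1.26 times within a group. It had 23.5, 21 and 24.8 CPM in Fam210aHKO replicates 1 to 3 and 65.1, 51.8 and 61.3 CPM in Ctrl replicates 1 to 3. Every Fam210aHKO library was below every Ctrl library, and the 3 numbers gave ratios of 0.361, 0.405 and 0.404. The log2 fold change came to -1.36 ± 0.151 (SE; edgeR adjusted p = 9.98e-05) and lay between -1.47 and -0.91 in all 18 alternatives, each of which called it. The clock genes thus had 1 of 10 called, where 27.5% of all tested genes were. At an unadjusted p under 0.05 there were 2 of the 10 clock genes, Hlf and Cry2, and 5322 of all 13706 tested genes. Of the clock genes, DESeq2 and limma-voom also called 0 higher and 1 lower. The median log2 fold change of the 10 was -0.42, against 0.02 over all tested genes. As given above, 4 of 7 tested hepatocyte markers were lower as well, and their part in the lower Hlf was not tested.

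**Figure D2:**
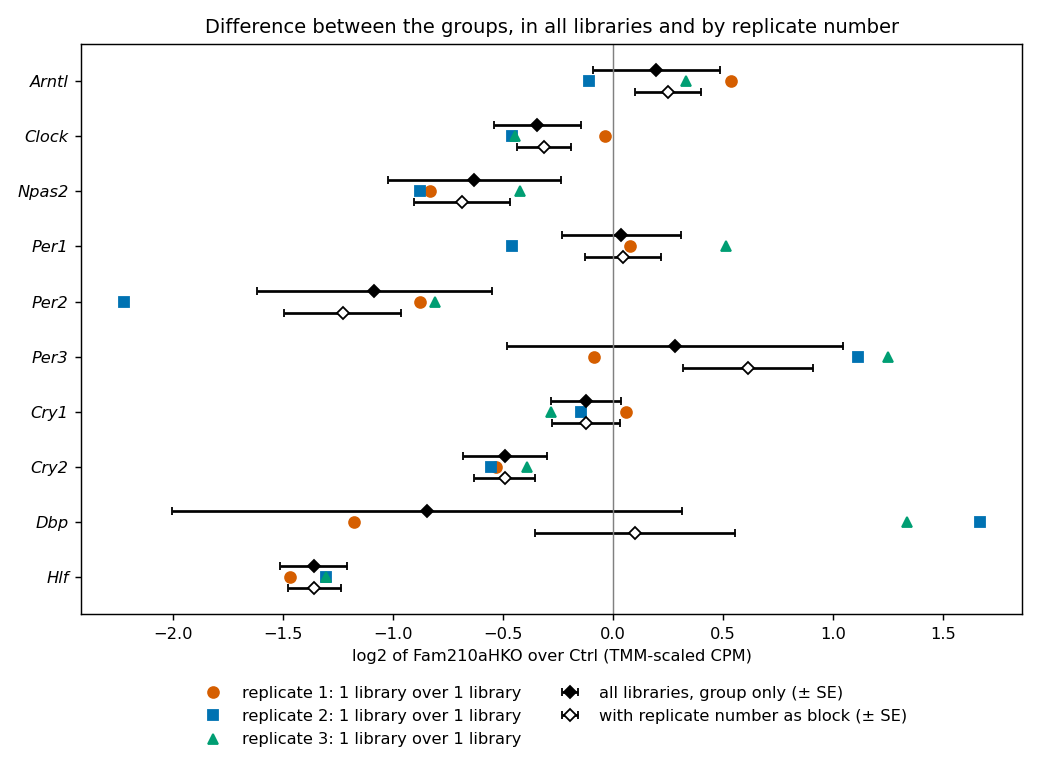
Log2 of Fam210aHKO over Ctrl for the 10 clock genes: coloured points are 1 library over 1 library within a replicate number, filled diamonds the fit on group alone and open diamonds the fit with the replicate block (bars, SE). Hlf lies between -1.47 and -1.30 in all 3 numbers, while Dbp runs from -1.18 in replicate 1 to 1.67 in replicate 2.

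Scaled differences between the groups rest on the TMM factors, since library totals moved all log2 fold changes by a median of 0.45. Ratios of 2 clock genes inside a library do not depend on scaling, so they were set beside the fits as a description, without a test. The ratio of Dbp to Arntl counts was 0.575, 0.0658 and 0.0384 in Fam210aHKO replicates 1 to 3 and 1.88, 0.0192 and 0.0191 in Ctrl replicates 1 to 3. It was highest in replicate 1 on both sides, and its span was wider in Ctrl. The ratio of Per3 to Arntl counts had the same order, with 0.469, 0.101 and 0.0632 in Fam210aHKO replicates 1 to 3 and 0.721, 0.0432 and 0.0334 in Ctrl replicates 1 to 3. For both ratios, Fam210aHKO was lower than Ctrl in replicate 1 and higher in replicates 2 and 3. The ratio of Per2 to Arntl counts was lower in Fam210aHKO in all 3 numbers, with 0.448, 0.0548 and 0.0942 against 1.19, 0.237 and 0.208 in Ctrl. Over Cry1, Hlf counts were 1.70, 1.59 and 1.98 in Fam210aHKO replicates 1 to 3 and 4.90, 3.54 and 4.04 in Ctrl replicates 1 to 3. Over Clock they were 0.357, 0.252 and 0.309 in Fam210aHKO and 0.963, 0.454 and 0.561 in Ctrl. Neither ratio overlapped between the groups, nor did Hlf over Arntl or over Cry2, while Hlf over Dbp and Hlf over Tef did.

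**Figure D3:**
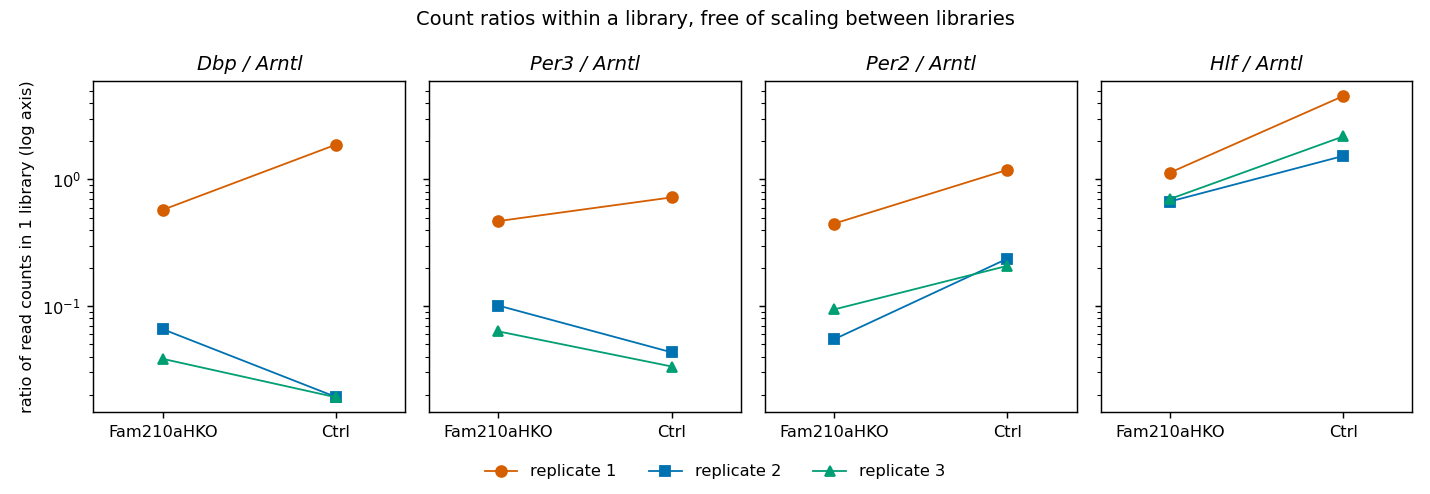
Ratios of read counts within a library (log axis, shared), Fam210aHKO left and Ctrl right, with libraries of the same replicate number joined. Dbp over Arntl runs from 0.0384 to 0.575 in Fam210aHKO and from 0.0191 to 1.88 in Ctrl, with replicate 1 on top in all 4 panels.

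The effect of the replicate number itself was tested in the block fit, a test added after the libraries had been seen one by one. Of all tested genes 65 were called for it (0.474%). Of the 10 clock genes Dbp (adjusted p = 0.00772, edgeR) and Per3 (adjusted p = 0.0136, edgeR) were called, ranking 10 and 13 among 13706. Per2 ranked 77 (adjusted p = 0.058), Arntl 145 (0.0807) and Npas2 177 (0.0904), all by edgeR and short of the threshold. At an unadjusted threshold of 0.05 all but Cry1 and Hlf passed, 8 of 10, where 16% of all tested genes did. Replicate 1 was at the same end of its group on both sides in 8 of the 10, against 29.9% of all tested genes. The labels do not say what the number stands for, and the part of collection time or of any other shared step in these values was not tested.

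Levels between the genes were compared per kilobase, with the deposited gene lengths. In Fam210aHKO the order of mean CPM per kilobase was Clock (5.57 ± 0.672, SD, n = 3), Per1 (4.61), Cry1 (3.95), Arntl (3.88), Hlf (3.46), Cry2 (2.46), Dbp (1.71), Per2 (0.819), Npas2 (0.798) and Per3 (0.526 ± 0.427, SD, n = 3). In Ctrl it was Hlf (8.89 ± 1.03, SD, n = 3), Clock (7.07), Per1 (4.50), Cry1 (4.30), Cry2 (3.47), Arntl (3.38), Dbp (3.14), Per2 (1.77), Npas2 (1.24) and Per3 (0.442 ± 0.550, SD, n = 3). Neighbours in these orders overlapped over the libraries, except that Hlf lay above Cry2 in Fam210aHKO. Hlf thus held the first place in Ctrl and the fifth in Fam210aHKO.

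The partner loops were described from a list of 12 genes, chosen with earlier results of these data known, of which 9 were tested. Rorb had 0 counts in every library, and Bhlhe41 and Arntl2 were under the filter, at no more than 0.522 CPM. On group alone 1 of the 9 was lower and none higher, and with the replicate block 2 were lower and 3 higher, where 17.8% of all tested genes were higher and 18% lower.

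Rora, which codes for an activator of Arntl, had 188, 154 and 146 CPM in Fam210aHKO replicates 1 to 3 and 89.0, 114 and 138 CPM in Ctrl replicates 1 to 3, and the groups did not overlap. The log2 fold change came to 0.52 ± 0.180 (SE; edgeR adjusted p = 0.0522) and was called with the block (adjusted p = 0.0284), but it was 0.25 without replicate 1 of both groups (adjusted p = 0.427). The repressor gene Nr1d1 had 42.0, 15.9 and 10.3 CPM in Fam210aHKO replicates 1 to 3 and 46.8, 3.90 and 21.7 CPM in Ctrl replicates 1 to 3. Both sides peaked in replicate 1 and the group difference changed sign between numbers, for a log2 fold change of -0.08 ± 0.676 (SE; edgeR adjusted p = 0.942). Nr1d2, the second REV-ERB gene, had 79.1, 39.6 and 42.8 CPM in Fam210aHKO replicates 1 to 3 and 55.8, 27.8 and 34.3 CPM in Ctrl replicates 1 to 3. It was higher in Fam210aHKO within all 3 numbers (log2 fold change 0.45, SE 0.296, adjusted p = 0.287, edgeR) and was called with the block (0.44, SE 0.119, adjusted p = 0.0135), while it was 0.053 without Fam210aHKO replicate 1 (adjusted p = 0.906) and 0.24 without Ctrl replicate 2 (adjusted p = 0.617).

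Tef, the third PAR bZIP gene, had 68.8, 24.3 and 20.3 CPM in Fam210aHKO replicates 1 to 3 and 103, 38.2 and 39.7 CPM in Ctrl replicates 1 to 3. Replicate 1 was the highest on both sides, as for Dbp, and Fam210aHKO was the lower library in all 3 numbers, as for Hlf. On group alone it missed the threshold (log2 fold change -0.68, SE 0.469, adjusted p = 0.318, edgeR), and with the block it was called lower (-0.74, SE 0.126, adjusted p = 0.000968), a call that ended when library totals were used with it (-0.28, adjusted p = 0.115). The value was -1.45 without Fam210aHKO replicate 1 (adjusted p = 0.0142) and -0.056 without Ctrl replicate 1 (adjusted p = 0.945). Nfil3, which codes for the repressor that competes at D-boxes, had 22.0, 42.4 and 34.3 CPM in Fam210aHKO replicates 1 to 3 and 20.1, 22.6 and 38.7 CPM in Ctrl replicates 1 to 3, with a log2 fold change of 0.27 ± 0.277 (SE; edgeR adjusted p = 0.505). Replicate 1 was its lowest on both sides, the reverse of Dbp and Tef.

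The E-box repressor gene Bhlhe40 had 43.3, 26.0 and 68.5 CPM in Fam210aHKO replicates 1 to 3 and 38.8, 18.8 and 38.7 CPM in Ctrl replicates 1 to 3. Replicate 2 was the lowest on both sides, and the log2 fold change came to 0.52 ± 0.337 (SE; edgeR adjusted p = 0.285), or 0.48 with the block (adjusted p = 0.0232). It was 0.12 without Fam210aHKO replicate 3 (adjusted p = 0.820) and 0.23 without Ctrl replicate 2 (adjusted p = 0.637). Ciart, which codes for a repressor of the CLOCK and BMAL1 pair, had 4.74, 1.79 and 0.790 CPM in Fam210aHKO replicates 1 to 3 and 7.48, 1.38 and 1.41 CPM in Ctrl replicates 1 to 3 (log2 fold change -0.46, SE 0.700, adjusted p = 0.669, edgeR). Timeless, whose part in the mammalian clock is debated, had 4.26, 3.10 and 3.16 CPM in Fam210aHKO and 5.30, 5.44 and 5.31 CPM in Ctrl, without overlap (log2 fold change -0.61, SE 0.225, adjusted p = 0.0678, edgeR). For the replicate number itself Tef (adjusted p = 0.00206), Ciart (0.0247), Nr1d2 (0.0248) and Bhlhe40 (0.0329) were called by edgeR, 4 of 9 against 0.474% of all tested genes.

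**Figure D4:**
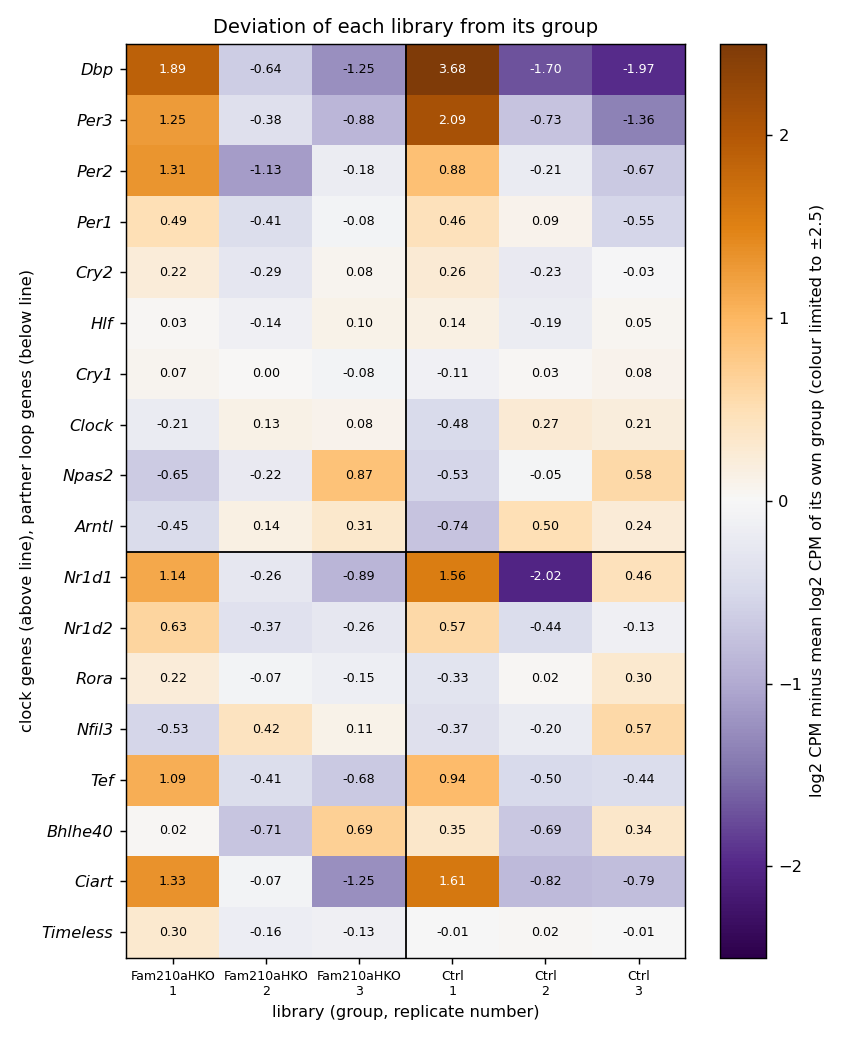
Log2 CPM of each library minus the mean of its own group, for the 10 clock genes (above the line) and 8 partner loop genes (below it), Fam210aHKO libraries left and Ctrl libraries right. Orange cells show replicate 1 above its group, by 1.89 and 3.68 for Dbp and 1.09 and 0.94 for Tef, and violet cells show it below, by -0.45 and -0.74 for Arntl.

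Other groups act on the clock proteins or with them. Counts of calls in these lists stand beside 14% of all tested genes higher and 13.5% lower on group alone. The lists were chosen with earlier results of these data known, so such counts are a description only. Of 16 genes for kinases, ubiquitin ligases and other factors that set the stability of clock proteins, 2 were higher and 1 lower, with a median log2 fold change of 0.19. Csnk1e, coding for a kinase that marks PER proteins, had 8.28, 8.81 and 8.20 CPM in Fam210aHKO replicates 1 to 3 and 6.52, 4.71 and 3.76 CPM in Ctrl replicates 1 to 3 and rose (log2 fold change 0.76, SE 0.230, adjusted p = 0.0309, edgeR). Csnk2a2, a kinase subunit gene, was higher at 0.46 (adjusted p = 0.0491, edgeR) and Fbxl21, coding for a ubiquitin ligase subunit that acts on CRY proteins, lower at -0.90 (adjusted p = 0.0448, edgeR). The Csnk1e call was lost in 5 of the 18 alternatives, that of Csnk2a2 in 12 and that of Fbxl21 in 13. With library totals 11 of the 16 were higher and none lower, where 42.7% of all tested genes were higher and 6.33% lower. Among 10 cofactors that work with the loop at chromatin, 1 was higher and none lower, and the median was -0.01. That gene was Sfpq, whose protein is found with PER complexes, at 93.6, 91.9 and 70.4 CPM in Fam210aHKO replicates 1 to 3 and 50.3, 50.7 and 47.6 CPM in Ctrl replicates 1 to 3 (log2 fold change 0.78, SE 0.150, adjusted p = 0.00291, edgeR).

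Clock-controlled genes of the liver were called in both directions. Of 16 tested, 6 fell and 2 rose, where 13.5% of all tested genes were lower and 14% higher. The median log2 fold change of -0.74 stood beside 0.02 for all tested genes. This list too was chosen with earlier results of these data known, so its counts are a description only. With the replicate block 11 were lower and 3 higher, where 18% of all tested genes were lower and 17.8% higher. With library totals 3 were lower and 4 higher, where 6.33% of all tested genes were lower and 42.7% higher. Without Ctrl replicate 3 there were 3 lower and 0 higher, where 1563 of 14023 tested genes were lower and 1339 higher. Elovl3, which elongates fatty acids and cycles in liver, had 3.54, 2.82 and 4.65 CPM in Fam210aHKO replicates 1 to 3 and 109, 89.9 and 220 CPM in Ctrl replicates 1 to 3. Its fall (log2 fold change -5.24, SE 0.359, adjusted p = 5.87e-06, edgeR) was the steepest of the list.

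Nr1i3, which codes for the xenobiotic receptor CAR and depends on PAR bZIP factors in mouse liver, had 12.9, 8.81 and 13.9 CPM in Fam210aHKO replicates 1 to 3 and 45.8, 34.3 and 30.3 CPM in Ctrl replicates 1 to 3. It fell by 1.63 on the log2 scale (SE 0.216, adjusted p = 0.000317, edgeR) and did so in all 3 numbers. Gys2, liver glycogen synthase, fell by 0.87 on the log2 scale (SE 0.157, adjusted p = 0.00211, edgeR). With library totals its adjusted p was 0.0538 (edgeR). The 2 that rose were Pnpla2, which codes for the lipase ATGL, with a log2 fold change of 0.86 ± 0.229 (SE; edgeR adjusted p = 0.0165), and the cell cycle kinase gene Wee1, with 0.80 (SE 0.271, adjusted p = 0.048, edgeR). The call of Pnpla2 was lost in 4 of the 18 alternatives and that of Wee1 in 10.

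Signals that reset the liver clock from outside were covered by 3 lists, also chosen with earlier results of these data known. Of 10 genes that answer to glucocorticoids or temperature, 3 rose and 4 fell, where 14% of all tested genes were higher and 13.5% lower, with a median of -0.24. Sgk1, a kinase gene, had 346, 258 and 181 CPM in Fam210aHKO replicates 1 to 3 and 34.4, 38.8 and 32.0 CPM in Ctrl replicates 1 to 3 (log2 fold change 2.90, SE 0.226, adjusted p = 1.25e-05, edgeR). Tsc22d3, coding for the glucocorticoid-induced protein GILZ, had 88.5, 40.7 and 66.8 CPM in Fam210aHKO replicates 1 to 3 and 232, 206 and 143 CPM in Ctrl replicates 1 to 3, and fell (log2 fold change -1.57, SE 0.267, adjusted p = 0.00152, edgeR). Zbtb16, a transcription factor gene induced by glucocorticoids (-2.11, adjusted p = 0.0024, edgeR), and the heat shock gene Hspa1b (-1.38, adjusted p = 0.00234, edgeR) fell too. Rbm3, a cold-induced RNA binding protein gene (0.76, adjusted p = 0.0189, edgeR), and the chaperone gene Hsp90aa1 (0.53, adjusted p = 0.0353, edgeR) rose, with 4 and 7 of the 18 alternatives ending the calls. The genes of this list thus moved in both directions.

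Of 6 tested genes that feeding induces in liver, 3 fell and none rose, where 13.5% of all tested genes were lower and 14% higher. Among them were Srebf1, the transcription factor gene of lipid synthesis (log2 fold change -1.31, adjusted p = 0.00604, edgeR), and the fatty acid synthase gene Fasn (-0.91, adjusted p = 0.0112, edgeR). Without replicate 1 of both groups the calls of Srebf1 (adjusted p = 0.0609) and Fasn (0.0805) ended, and Fasn was also lost with library totals (0.113). Of 7 genes that fasting induces, 2 rose and 1 fell, against the same shares. Pdk4, which restrains pyruvate oxidation, had 103, 200 and 246 CPM in Fam210aHKO replicates 1 to 3 and 10.8, 20.3 and 17.9 CPM in Ctrl replicates 1 to 3 (log2 fold change 3.48, SE 0.330, adjusted p = 3.81e-05, edgeR). It was lowest in replicate 1 on both sides and was called for the replicate number as well (adjusted p = 0.0391, edgeR). Igfbp1 rose (log2 fold change 2.57, adjusted p = 9.84e-06, edgeR) and Pck1, of gluconeogenesis, fell (log2 fold change -1.42, adjusted p = 0.00339, edgeR).

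Finally, the genes whose pattern over the 6 libraries lay nearest to Dbp and to Arntl were found among 9636 tested genes of at least 5 CPM on average. Likeness was the root mean square difference between log2 CPM profiles, each centred on its own mean. The floor left out, among others, Per3 (means of 5.05 CPM in Fam210aHKO and 4.25 CPM in Ctrl). It also left out Ciart (2.44 CPM in Fam210aHKO and 3.42 CPM in Ctrl), so the likeness of both to Dbp was not measured. Nearest to Dbp, whose own profile has a root mean square of 2, were Usp2 (1.18), Nr1d1 (1.30), Noct (1.43), Adamts7 (1.45) and Tef (1.47), all of them some way off. Of these, Usp2, Nr1d1, Noct and Tef already stood in the lists above. Noct, which codes for a rhythmic phosphatase, had 22.6, 6.95 and 7.76 CPM in Fam210aHKO replicates 1 to 3 and 49.8, 14.5 and 13.4 CPM in Ctrl replicates 1 to 3. Usp2, coding for a deubiquitinase with a strong daily rhythm, had 12.9, 2.13 and 3.51 CPM in Fam210aHKO replicates 1 to 3 and 23.0, 4.38 and 3.97 CPM in Ctrl replicates 1 to 3. Both were high in replicate 1 of each group, and with the replicate block both were called lower in Fam210aHKO (adjusted p = 0.00035 and 0.0282, edgeR). With library totals added to the block Noct was still called (adjusted p = 0.0115) and Usp2 was not (adjusted p = 0.356). Without Ctrl replicate 1 the group-only values were -0.17 for Noct and 0.56 for Usp2. Nearest to Arntl, with a root mean square of 0.457, were Lrp12 (0.0807), Phactr2 (0.131), Rab11b-ps2 (0.136), Kdm2b (0.141) and Atp10d (0.148), none of which is in the lists.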

How the data were processed

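Poly-A RNA of 6 mouse liver samples was sequenced, and samples were grouped by their titles. Raw counts per Ensembl gene were deposited by the authors, 1 column per library, beside FPKM values, which the authors scaled by gene length and by a library size of their own. The build mm10 and the tools STAR, featureCounts, Trimmomatic, FastQC and DESeq2 are named, without versions, per the submitters' processing notes. The strand setting is not stated there. All 10 clock genes have the same coordinates in GENCODE mouse release 21.

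Counts were filtered by filterByExpr (minimum count 10), scaled by TMM and tested with the quasi-likelihood F test (legacy = FALSE) of edgeR 4.0.16 in R 4.3.3, two-sided, with group as the only factor and Benjamini-Hochberg adjustment over 13706 genes; an adjusted p under 0.05 made a call. The SE is the absolute log2 fold change over the square root of F. CPM uses TMM-scaled totals. The common biological coefficient of variation was 0.196. The procedure was tested on simulated data.

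Deviations from the group means correlated between same-numbered libraries at 0.245, 0.182 and 0.155 and between others at -0.141 to -0.0262, over genes. Such deviations cancel within a group, so positive values for same numbers push those for other numbers negative. The check covered all tested genes, the clock genes among them, and cannot establish pairing. That the numbers pair the libraries is thus an assumption of the block fit. What the numbers stand for is not stated in the labels. The deposited library names are numbered otherwise than the titles, with a gap at the same place in both groups. The block fit adds the number to the group. Alternatives (DESeq2 1.42.0 and limma 3.58.1 among them) are listed in the closing section. The genes and lists were chosen with earlier results of these data known, and the hepatocyte list had 7 of 8 symbols matched (Tf was not). All lists of pathway genes have every symbol matched. Genes named were the 10 clock genes, the partner loop list, up to 3 called genes per direction of smallest p in each other list, and the 5 nearest patterns of Dbp and Arntl with a mean of at least 5 CPM. Promoters are RefSeq windows of GRCm38.p6. Some list genes are counted with their list but not reported here by name or value.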

Additional observations from a re-analysis of the deposited data

How the results depend on the processing

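In all, 18 alternatives were run, of which 2 (without replicate 1 of both groups, and the replicate block with library totals) were chosen after seeing the data. The others changed the scaling (library totals, upper quartile, median of ratios), the filter (none, or over 1 CPM in at least 3 libraries) or the tool (DESeq2, limma-voom, limma on log2(FPKM + 1) and log2(FPKM + 0.1)), left out 1 library, or added the replicate block. Hlf kept its call and direction in all 18.

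Against 1922 genes higher and 1852 lower, there were 5846 and 868 with library totals, 6787 and 1072 with the replicate block and library totals, and 1045 and 1012 without replicate 1 of both groups. The replicate block gave 2434 and 2462. Leaving out single libraries gave 1339 to 1897 higher and 1334 to 1834 lower. Of the clock genes 0 were called higher and 1 lower; the replicate block gave 4 lower, the block with library totals 3 higher (Arntl, Per1, Per3) and 2 lower (Per2, Hlf), and the fit without replicate 1 of both groups 2 lower. Single libraries left out gave 0 to 1 higher and 1 to 2 lower.

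Signs of log2 fold changes that missed the threshold turned as follows, and the cause was not tested. With library totals, Clock was at 0.12, Cry1 at 0.33 and Nr1d1 at 0.34; with the block and library totals, Clock was at 0.14, Cry1 at 0.33, Dbp at 0.55, Nr1d1 at 0.60, Ciart at 0.030 and Adamts7 at 0.033. With the block, Dbp was at 0.10 and Nr1d1 at 0.16. Without replicate 1 of both groups, Dbp was at 1.49, Nr1d1 at 0.011 and Adamts7 at 0.25. Without Ctrl replicate 1, Arntl was at -0.10, Dbp at 3.10, Nr1d1 at 0.81, Ciart at 0.79, Usp2 at 0.56, Adamts7 at 0.38, Lrp12 at -0.023, Rab11b-ps2 at -0.081, Kdm2b at -0.065 and Atp10d at -0.11. Without Fam210aHKO replicate 1, Per1 was at -0.26 and Per3 at -0.65. Without Ctrl replicate 2, Per3 was at -0.15; without Ctrl replicate 3, Per1 was at -0.21 and Per3 at -0.24. Without Fam210aHKO replicate 2 or 3, Nr1d1 was at 0.12 and 0.28. With log2(FPKM + 1) and log2(FPKM + 0.1), Per1 was at -0.021 and -0.022 and Nr1d1 at 0.10 and 0.18; Dbp was at 0.38 with the second and 0.74 with limma-voom, where Nr1d1 was at 0.27.

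Over single libraries left out, the values ran from -0.10 to 0.44 for Arntl, -0.26 to 0.27 for Per1, -0.65 to 2.07 for Per3, -2.003 to -0.53 for Per2, -1.22 to -0.30 for Npas2, -0.62 to -0.36 for Cry2, -1.45 to -0.056 for Tef, -2.47 to 3.10 for Dbp, -0.90 to 0.81 for Nr1d1, -1.45 to 0.79 for Ciart, -1.87 to 0.56 for Usp2, -1.03 to 0.38 for Adamts7, -0.023 to 0.43 for Lrp12, -0.081 to 0.29 for Rab11b-ps2, -0.065 to 0.30 for Kdm2b and -0.11 to 0.60 for Atp10d.

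Depth limits the lowest values: Dbp and Per3 had 8 to 18 counts in Ctrl replicates 2 and 3.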

Other observations

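Of the 65 genes called for the replicate number, 10 stand among the clock genes or their lists and 55 do not. The 5 of smallest p among those 55, chosen after the values were seen, follow in CPM. Nr0b2, which codes for the nuclear receptor SHP, had 11.4, 2.55 and 7.98 in Fam210aHKO replicates 1 to 3 and 30.9, 3.73 and 23.6 in Ctrl replicates 1 to 3. Spata2l had 16.6, 4.75 and 10.2 in Fam210aHKO and 37.8, 8.36 and 19.4 in Ctrl. Replicate 2 was the lowest of its group for both of these genes, on both sides, unlike Dbp. The gene 3930402G23Rik had 2.06, 17.2 and 12.5 in Fam210aHKO and 2.17, 13.2 and 6.45 in Ctrl, with replicate 1 lowest. Mup13 (0.813, 0.344 and 0.0877 in Fam210aHKO, and 93.9, 21.4 and 14.9 in Ctrl) and Cyp3a41a (15.3, 118 and 13.4 in Fam210aHKO, and listed at 0 in all 3 Ctrl libraries) have near-identical copies between which the counting could split reads. In Cyp3a41a the call rests on the Fam210aHKO libraries, since all Ctrl libraries are at 0.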
